A study of Mus musculus with 12 samples.

Results

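The 8 genes described here act in cholesterol synthesis or in its control, and they were measured in mouse mammary fat pads after 2 amounts of folic acid. They are Hmgcs1, Idi1, Fdft1, Sqle, Lss, Cyp51, Insig1 and Srebf2, taken as a named list of sterol synthesis genes and targets of the transcription factor SREBP2. The counts listed 55487 gene IDs, of which 18647 passed a filter on low counts and were tested, and all 8 sterol genes passed. None of the 8 codes for a lipoprotein receptor, so sterol uptake is covered below by a separate list.

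RNA came from 12 libraries of female C57BL/6 mice at postnatal day 84, 4 weeks after folic acid supplementation, with 6 libraries at 5 mg/kg and 6 at 1 mg/kg. Folic acid is the synthetic form of the vitamin folate, both groups received it, and the series title places the intake in juvenile and peri-pubertal life. The right thoracic fat pad was taken whole, so each library mixes RNA of fat cells, ducts, vessels, immune cells and any muscle cut with it, and fewer cells of a type cannot be told apart from less RNA per cell. Whether each library is its own animal is not stated, nor is any batch or litter, so a p here measures the spread between these samples only.

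Cells make cholesterol from acetyl units through mevalonate, isoprenoids and squalene. SREBP2, the protein made from Srebf2, is a transcription factor that stays in the endoplasmic reticulum while sterols are plentiful, held there with its escort SCAP by INSIG proteins. When sterols run low it is cut, enters the nucleus and raises transcription of the synthesis enzymes and of Insig1, a gene whose product closes a feedback loop.

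Libraries held from 48.2 to 75.3 M reads assigned to genes (M, mega), of which the mitochondrial rRNA genes took from 39.2% to 59.5%. The markers of the tissue were present, with 16 of 16 adipocyte markers and 12 of 12 luminal epithelium markers passing the filter. Other tissue was present too. The mean level of 11 skeletal muscle markers ran from 9.53 to 11.1 log2 CPM at 5 mg/kg, against 8.93 to 11.5 log2 CPM at 1 mg/kg, where CPM is a read count scaled to a common library size. The mean level of 8 B cell markers ran from -1.06 to 5.97 log2 CPM at 5 mg/kg, against -1.41 to 6.36 at 1 mg/kg. In Insig1 and Hmgcs1 3 libraries stood apart, replicates 4 and 5 of the 5 mg/kg group and replicate 4 of the 1 mg/kg group. They did so in CPM scaled with TMM factors, which adjust library sizes, and the split depends on that scaling. Replicate 5 at 5 mg/kg, with a factor of 0.60, had 4651 Hmgcs1 reads among 75.3 M gene reads. Replicate 2 at 5 mg/kg, with a factor of 1.185, had 3820 among 53.5 M, which is more per gene read. Several results that rest on the 3 libraries are given with and without them.

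Promoter sequence of 4 of the genes is shown because 2 of them hold, and 2 do not hold, the exact letters of a core element that SREBP proteins bind, and because 3 of them, Hmgcs1, Insig1 and Lss, were among those that moved together over libraries while Srebf2 did not move with them. The sequences are RefSeq's, on build GRCm38.p6 and the plus strand, and end before the gene start of both RefSeq and GENCODE. Positions are chr13:119690101-119690350 for Hmgcs1, chr5:28071162-28071362 for Insig1, chr10:76531355-76531587 for Lss and chr15:82147019-82147180 for Srebf2. Capitals mark the sterol regulatory element core TCACNCCA and the CCAAT box, which is bound by the factor NF-Y, on either strand.
Hmgcs1: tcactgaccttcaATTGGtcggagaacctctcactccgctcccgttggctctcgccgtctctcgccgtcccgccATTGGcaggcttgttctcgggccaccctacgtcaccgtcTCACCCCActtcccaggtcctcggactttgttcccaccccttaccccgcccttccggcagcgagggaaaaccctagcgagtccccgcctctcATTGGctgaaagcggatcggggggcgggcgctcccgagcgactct
Insig1: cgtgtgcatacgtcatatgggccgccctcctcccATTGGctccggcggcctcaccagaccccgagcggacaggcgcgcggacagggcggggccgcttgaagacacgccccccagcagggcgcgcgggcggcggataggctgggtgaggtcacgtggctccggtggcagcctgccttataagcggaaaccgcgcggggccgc
Lss: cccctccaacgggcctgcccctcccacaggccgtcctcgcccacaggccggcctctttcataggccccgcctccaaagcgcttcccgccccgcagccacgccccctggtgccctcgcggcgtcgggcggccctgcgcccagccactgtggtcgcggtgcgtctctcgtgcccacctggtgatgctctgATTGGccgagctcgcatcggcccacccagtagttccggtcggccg
Srebf2: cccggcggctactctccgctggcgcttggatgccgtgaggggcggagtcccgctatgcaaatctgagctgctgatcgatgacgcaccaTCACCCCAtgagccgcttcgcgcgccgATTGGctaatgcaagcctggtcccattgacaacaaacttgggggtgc

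Motifs were counted in the 250 bases before the RefSeq start, for the 6 sterol genes that the promoter table holds and for 32851 promoters in all, with letters chosen while the sterol promoters were in view. The core TCACNCCA lay in 2 of the 6, at 137 to 130 bases before the start of Hmgcs1 and at 162 to 155 bases before the start of Srebf2, against 3.67% of all promoters. CCAAT lay in 6 of 6, including 3 copies in Hmgcs1, against 33.9% of all promoters. The GC box GGGCGG, which Sp1 binds, also lay in 6 of 6, against 32.7%. These counts use the RefSeq start alone. By the GENCODE gene bounds, the CCAAT copies of Idi1 and Cyp51 and the GC box of Idi1 lie inside the gene. The E-box CACGTG lay in Insig1 alone of the 6, at 101 to 96 bases before its start, against 6.02% of all promoters, and it overlaps neither of the marked motifs there. A match of letters is not a measured binding site, and variants of these elements were not searched.

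Among the regulators, Insig1 was the most abundant of the 8 genes per unit of length, at 32.2 ± 17.8 RPKM over 12 libraries (SD), where RPKM is CPM per kilobase of exon. Insig1 spans chr5:28071363-28078662 on GRCm38. Its lowest, median and highest values were 84.8, 87.1 and 197 CPM at 5 mg/kg, against 41.1, 56.3 and 185 CPM at 1 mg/kg. At 5 mg/kg 4 libraries lay within 84.8 to 88.0 CPM and the other 2 at 176 and 197 CPM. At 1 mg/kg 5 libraries lay between 41.1 and 85.5 CPM and the remaining one at 185 CPM, so the groups overlapped.

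Srebf2, at chr15:82147181-82205379, stood at 3.23 ± 1.13 RPKM (SD, n = 12). Its lowest, median and highest values were 14.0, 21.4 and 31.2 CPM at 5 mg/kg, against 13.2, 23.8 and 39.8 CPM at 1 mg/kg. The libraries with the most Insig1 were not those with the most Srebf2, and the lowest Srebf2 value at 5 mg/kg belonged to the library with the highest Insig1. The difference Insig1 minus Srebf2 ran from 1.45 to 3.81 log2 CPM at 5 mg/kg, against 0.044 to 3.17 at 1 mg/kg.

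Hmgcs1, at chr13:119690379-119708260, codes for the cytosolic synthase that makes HMG-CoA, the precursor of mevalonate. It had 46.0, 60.9 and 103 CPM at 5 mg/kg as lowest, median and highest value, against 30.3, 49.9 and 121 CPM at 1 mg/kg. Replicates 4 and 5 of the 5 mg/kg group, each with 103 CPM, and replicate 4 of the 1 mg/kg group, with 121 CPM, were far above every other library, the next being at 61.5 CPM. Idi1, at chr13:8885501-8892451, makes the isoprenoid building block dimethylallyl diphosphate and was the scarcest of the 8 genes at 0.895 ± 0.371 RPKM (SD, n = 12). Its values were 1.45, 3.36 and 6.33 CPM at 5 mg/kg, against 1.78, 2.86 and 4.04 CPM at 1 mg/kg, from 92 to 286 reads per library.

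Fdft1, at chr14:63145150-63179578, codes for squalene synthase, the first step committed to sterols. It had 21.7, 30.6 and 48.8 CPM at 5 mg/kg, against 13.3, 29.2 and 41.5 CPM at 1 mg/kg, and 2 libraries at 5 mg/kg lay above all those at 1 mg/kg. Its reads are uncertain. Of its 4227 exon bases 774 lie opposite Ctsb, the gene of the lysosomal protease cathepsin B, whose mean was 642 CPM, and the library kit does not mark strand.

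Sqle, at chr15:59315077-59331192, codes for squalene epoxidase, a control point late in the pathway. It had 5.49, 8.62 and 11.8 CPM at 5 mg/kg, against 4.24, 6.76 and 14.1 CPM at 1 mg/kg. Lss, at chr10:76531588-76557138, closes the sterol rings to give lanosterol. It had 11.4, 17.3 and 34.4 CPM at 5 mg/kg, against 7.28, 11.4 and 30.6 CPM at 1 mg/kg. For both genes the highest libraries were again replicate 5 at 5 mg/kg and replicate 4 at 1 mg/kg, and the lowest of each group was replicate 3. Cyp51, at chr5:4081145-4104746, removes a methyl group from lanosterol, and had 15.3, 18.8 and 32.4 CPM at 5 mg/kg, against 11.8, 15.3 and 32.9 CPM at 1 mg/kg.

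Per unit of length the order was Insig1, Hmgcs1, Fdft1, Cyp51, Srebf2, Lss, Sqle and Idi1. Length here is the union of all annotated exons of a gene, longest for Lss at 10787 bases, so the order depends on the annotation. Insig1 was above Hmgcs1, and Hmgcs1 above Fdft1, in 12 of 12 libraries. Lss and Sqle did not differ beyond their spread, at 1.53 ± 0.784 and 1.42 ± 0.524 RPKM (SD, n = 12), and Lss was the higher in 7 of 12 libraries. Cyp51 was above Srebf2 in 9 of 12. Each other neighbour in the order held in 11 of 12. The ratio of the highest to the lowest library was 4.80 for Insig1, 4.73 for Lss and 4.38 for Idi1, and was lowest for Cyp51 at 2.79.

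**Figure D1:**
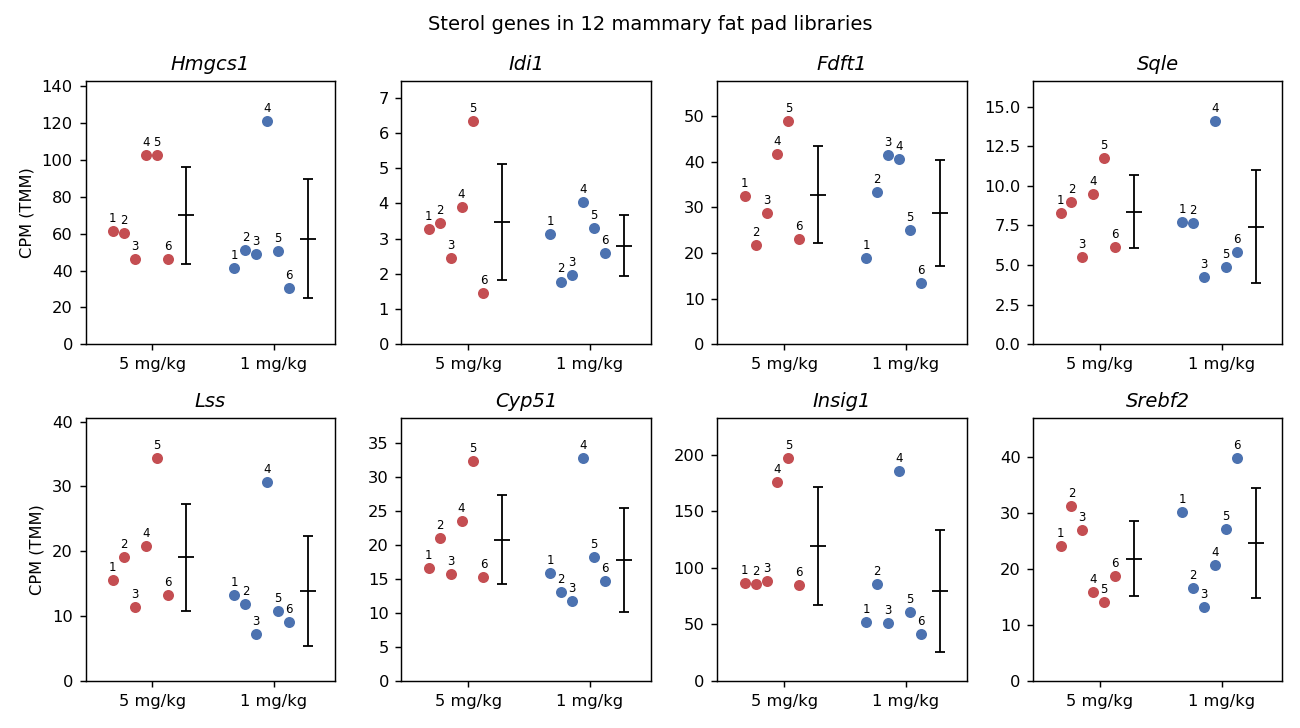
CPM after TMM scaling (y axis, from 0) of each of the 8 sterol genes in the 6 libraries at 5 mg/kg (left, red) and the 6 at 1 mg/kg (right, blue); small numbers are replicates, bars are mean and SD. Replicates 4 and 5 of the 5 mg/kg group and replicate 4 of the 1 mg/kg group carry the high values of Insig1, at 176, 197 and 185 CPM, and the groups overlap for all 8 genes.

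The question put to the dose comparison was whether the 5 mg/kg glands differed from the 1 mg/kg glands in sterol genes. Levels of 7 of the 8 genes averaged higher at 5 mg/kg and Srebf2 averaged lower, but none passed the test. The largest difference was that of Insig1, with means of 120 ± 52.3 CPM at 5 mg/kg, against 79.3 ± 54.1 CPM at 1 mg/kg (SD, n = 6 each). Its log2 fold change, 5 mg/kg over 1 mg/kg, was 0.59 ± 0.39 (SE) with a 95% interval from -0.25 to 1.43. Lss had means of 19.1 ± 8.29 CPM at 5 mg/kg, against 13.8 ± 8.50 CPM at 1 mg/kg. Its log2 fold change was 0.46 ± 0.36, with an interval from -0.31 to 1.24.

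The other enzymes differed less. Idi1 had a log2 fold change of 0.31 ± 0.32, Hmgcs1 of 0.29 ± 0.33, Cyp51 of 0.22 ± 0.27, Fdft1 of 0.19 ± 0.29 and Sqle of 0.17 ± 0.29 (SE). Srebf2 had means of 21.8 ± 6.71 CPM at 5 mg/kg, against 24.6 ± 9.78 CPM at 1 mg/kg. Its log2 fold change was -0.17 ± 0.28. All of the 95% intervals included 0, and the widest upper bounds, 1.43 for Insig1 and 1.24 for Lss, leave differences of that size compatible with these libraries.

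With edgeR's quasi-likelihood test and Benjamini-Hochberg adjustment over all tested genes, 0 of the 8 sterol genes were called at 0.05, where 0% of 18647 genes were called, and each had an adjusted p of 0.943. Without adjustment, 0 of the 8 sterol genes and 359 of 18647 genes, or 1.93%, had a p under 0.05. DESeq2 and limma-voom also called 0 genes, with 776 of 48208 and 361 of 18647 genes at an unadjusted p under 0.05. The groups overlapped for all 8 sterol genes, and were without overlap for 0.0429% of all genes. The share of sterol genes with a positive fold change, 7 of 8, stands beside 47.2% of all genes. Most of the 8 moved together over libraries, so they are not independent observations.

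**Figure D2:**
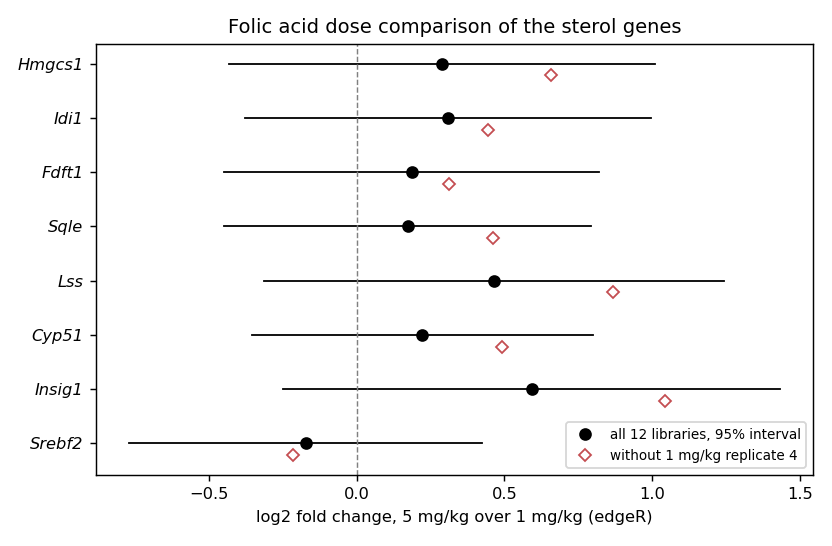
Log2 fold change of each sterol gene, 5 mg/kg over 1 mg/kg (x axis), from edgeR over 12 libraries with its 95% interval (black), and the value without replicate 4 of the 1 mg/kg group (open red). All 8 intervals cross 0, and the values without that library range from -0.22 for Srebf2 to 1.04 for Insig1.

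Single libraries moved these differences. Without replicate 4 at 1 mg/kg the log2 fold change was 1.04 for Insig1 (unadjusted p = 0.00440), 0.87 for Lss (unadjusted p = 0.00885), 0.66 for Hmgcs1 (unadjusted p = 0.0247) and 0.49 for Cyp51 (unadjusted p = 0.0355), all by edgeR. So 4 of the 8 were then at an unadjusted p under 0.05, where 7.64% of all tested genes were, and the adjusted p by edgeR was 0.643 for each. Without replicate 5 at 5 mg/kg the log2 fold change was 0.40 for Insig1 and 0.23 for Lss. The mean level over the 8 genes was 4.42 ± 0.39 log2 CPM at 5 mg/kg, against 4.12 ± 0.45 at 1 mg/kg (SD, n = 6 each), a difference of 0.30. That difference was 0.48 without replicate 4 at 1 mg/kg, 0.19 without replicate 5 at 5 mg/kg, and 0.14 with scaling by library size alone.

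The adipocyte level was highest in the 3 libraries that stood apart. The mean level of the 16 adipocyte markers ran from 8.24 to 8.89 log2 CPM at 5 mg/kg, against 7.24 to 9.10 at 1 mg/kg, with 9.10 in replicate 4 at 1 mg/kg, and 8.89 and 8.87 in replicates 4 and 5 at 5 mg/kg. With that level as a covariate in edgeR the log2 fold change was 0.12 for Insig1 and 0.11 for Lss, the signs of Hmgcs1, Fdft1, Sqle, Cyp51 and Srebf2 turned, and 0 genes were called. Its part in the sterol gene differences was not tested beyond that.

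Markers of brown fat and slow muscle also lay higher at 5 mg/kg, with 0 called. For 11 brown adipocyte markers the mean level ran from 0.32 to 5.27 log2 CPM at 5 mg/kg, against 1.23 to 4.08 at 1 mg/kg, and 11 of 11 averaged higher at 5 mg/kg with a median log2 fold change of 1.33. For 6 slow skeletal muscle markers it ran from 1.13 to 7.81 log2 CPM at 5 mg/kg, against -1.38 to 4.33 at 1 mg/kg, and 6 of 6 averaged higher with a median of 3.58. Of 8 epidermis markers 5 passed the filter, and 5 of 5 averaged higher with a median of 2.98. Replicates 4 and 5 of the 5 mg/kg group were the highest of all 12 libraries in both the brown fat level, at 4.92 and 5.27, and the slow muscle level, at 6.92 and 7.81. The part of these tissues in the sterol gene values was not tested.

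Over libraries the sterol genes other than Srebf2 and Fdft1 moved up and down together, and Fdft1 followed them less closely. Fdft1 had a median r of 0.43 to the other genes and 0 pairs above 0.8. The 28 pairs of the 8 genes had a median Pearson r of 0.70 and a median Spearman rho of 0.72 on log2 CPM over 12 libraries, and 9 pairs, or 32.1%, were above 0.8. Among all 173845981 pairs of tested genes the median r was -0.007 and 5.47% were above 0.8. The 21 pairs without Srebf2 ranged from 0.34 to 0.94 with a median of 0.79, and the 7 pairs with Srebf2 from -0.87 to -0.0012 with a median of -0.25.

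The 3 libraries with over 170 CPM of Insig1 carried much of this. Over the other 9 libraries the median r was 0.35 for all 28 pairs and 0.39 for the 21 pairs without Srebf2, and 1 pair was above 0.8. Taken alone, the 6 libraries at 5 mg/kg gave a median of 0.84 and the 6 at 1 mg/kg a median of 0.59. These medians are descriptions, and the difference between the groups was not tested.

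**Figure D3:**
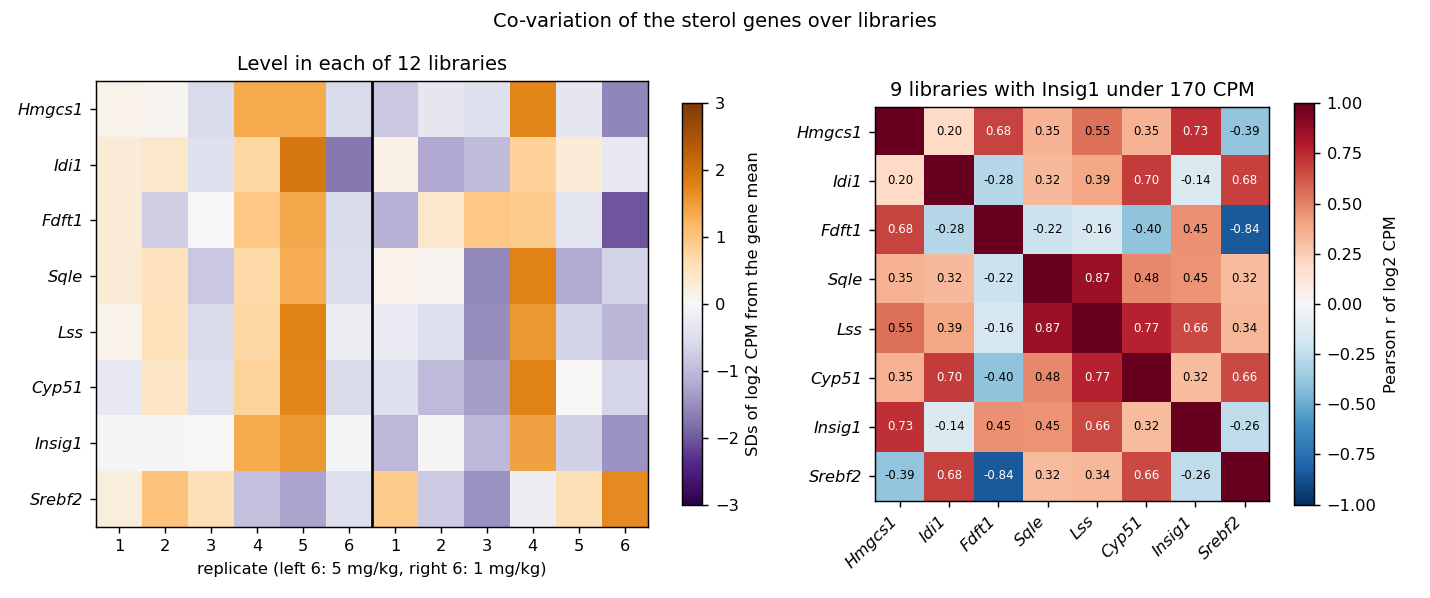
Left, the level of each sterol gene in each library as SDs of log2 CPM from the gene's mean, with 5 mg/kg left of the line and 1 mg/kg right of it. Right, Pearson r of each pair over the 9 libraries with under 170 CPM of Insig1, where Sqle with Lss gave 0.87 and Fdft1 with Srebf2 -0.84.

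By rho over 12 libraries the closest pair was Sqle and Lss, successive enzymes on the way from squalene to lanosterol. Over 12 libraries r was 0.94 and rho 0.95, with permutation p-values of 2e-05 and 1e-05 (100000 resamples, the smallest they can give being 1e-05) and an adjusted p of 0.00028 for both over the 28 pairs. Without the 2 libraries farthest from the median of Sqle r was 0.89, and it was 0.95 in each group of 6. Over the 9 libraries r was 0.87 and rho 0.90 (exact permutation p = 0.00198 and 0.00203, adjusted 0.0555 and 0.0431).

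Lss and Cyp51, which act in sequence on lanosterol, gave r = 0.94 and rho = 0.83 over 12 libraries (permutation p = 2e-05 and 0.00149, adjusted 0.00028 and 0.00695). That r was 0.84 without the 2 farthest libraries, 0.98 at 5 mg/kg and 0.92 at 1 mg/kg. Over the 9 libraries it was 0.77 with rho 0.62 (exact permutation p = 0.0180 and 0.0857, adjusted 0.126 and 0.343), and without the 2 farthest of those 0.16, so the relation there rests on few libraries. Idi1 and Cyp51 gave r = 0.84 and rho = 0.93 over 12 libraries (permutation p = 0.0004 and 3e-05, adjusted 0.0016 and 0.00042), 0.87 without the 2 farthest libraries, 0.89 at 5 mg/kg and 0.87 at 1 mg/kg. Over the 9 libraries r of Idi1 and Cyp51 was 0.70 and rho 0.85 (exact permutation p = 0.0365 and 0.00607, adjusted 0.178 and 0.0567). Without the 2 farthest of those r was 0.90.

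In TMM-scaled CPM Insig1 and Hmgcs1 fall into separate clusters of 3 and 9 libraries, so no value over 12 is given for them. Over the 9 libraries their r was 0.73 and rho 0.62 (exact permutation p = 0.0146 and 0.0857, adjusted 0.126 and 0.343), and r was 0.40 without the 2 farthest, so it rests on those libraries.

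Fdft1 and Srebf2 ran opposite to each other. Over 12 libraries r was -0.87 and rho -0.89 (permutation p = 0.0003 and 0.00032, adjusted 0.0014 and 0.00299), -0.77 at 5 mg/kg and -0.92 at 1 mg/kg. Without the 2 farthest libraries r was -0.77, and over the 9 libraries it was -0.84 with rho -0.88 (exact permutation p = 0.00468 and 0.00308, adjusted 0.0655 and 0.0431). The library with the most Srebf2, replicate 6 at 1 mg/kg with 39.8 CPM, had the least Fdft1 at 13.3 CPM. With 4 of the other enzymes, Idi1, Sqle, Lss and Cyp51, Fdft1 had r of 0.34 to 0.48 over 12 libraries and -0.40 to -0.16 over the 9. With Hmgcs1 it had 0.68 over the 9 libraries and rho of 0.57 (exact permutation p = 0.0462 and 0.121, adjusted 0.178 and 0.375), and r was 0.14 without the 2 farthest, so it rests on those libraries.

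**Figure D4:**
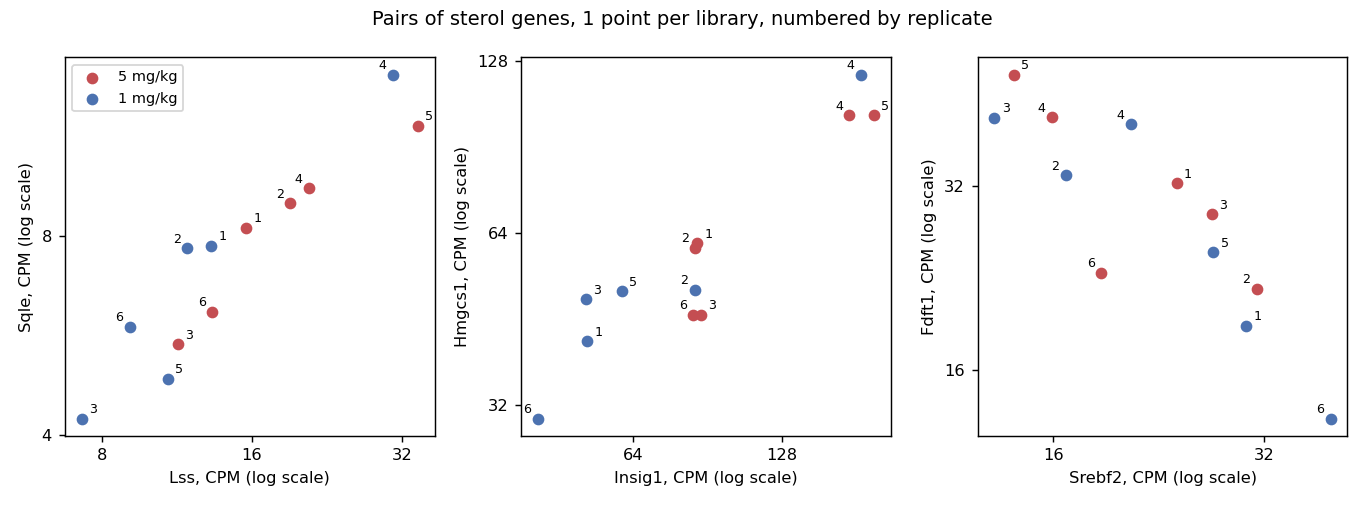
CPM on log axes of 3 pairs of sterol genes, Sqle against Lss, Hmgcs1 against Insig1 and Fdft1 against Srebf2, with 1 point per library (red 5 mg/kg, blue 1 mg/kg) and numbers for replicates. Sqle and Lss lie along a line through both groups, Insig1 splits into 3 libraries above 170 CPM and 9 below, and Fdft1 lies lower where Srebf2 is higher.

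The antisense neighbour Ctsb moved with Fdft1. Ctsb had 617, 659 and 853 CPM as lowest, median and highest value at 5 mg/kg, against 333, 558 and 814 CPM at 1 mg/kg. Its r with Fdft1 over 12 libraries was 0.86 and rho 0.79 (permutation p = 0.00035 and 0.00338, adjusted 0.00577 and 0.0279 over 33 relations). That r was 0.69 without the 2 farthest libraries, 0.86 at 5 mg/kg and 0.90 at 1 mg/kg. Ctsb against Srebf2 gave r = -0.68 and rho = -0.61 (permutation p = 0.0100 and 0.0402, adjusted 0.0331 and 0.111), -0.52 without the 2 farthest libraries, and -0.72 in each group. Whether reads of the overlap were counted to Fdft1 depends on the strand setting and was not tested. Cyp51 shares 166 of its 4415 exon bases with Akap9 on the opposite strand, and their r was -0.41 with rho -0.48 (permutation p = 0.182 and 0.121, adjusted 0.261 and 0.211).

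Srebf2 stood apart from its targets and moved with marker levels of B cells and skeletal muscle. It was at 24.0 to 39.8 CPM in the 6 libraries, 3 of each group, whose B cell markers averaged 5.08 to 6.36 log2 CPM. It was at 13.2 to 20.6 CPM in the 6 whose B cell markers averaged -1.41 to 3.37, with no overlap. That split depends on where the libraries are cut. The lowest Srebf2, 13.2 CPM, was in replicate 3 at 1 mg/kg, whose B cell level of 3.37 was the highest of those 6. The widest gap in B cell level, 44.1% of its range, lay below that library, and a cut there gives groups that overlap in Srebf2. All 8 B cell markers passed the filter. Against the skeletal muscle level its r was -0.85 and rho -0.81 over 12 libraries (permutation p = 0.00056 and 0.00216, adjusted 0.00616 and 0.0238), -0.72 without the 2 farthest libraries, -0.89 at 5 mg/kg and -0.84 at 1 mg/kg. Srebf2 also varied with the share of reads outside genes. It was at 39.8 CPM in the library with the largest share, 26.6%, and at 14.0 CPM in that with the smallest, 5.58%. Replicate 6 at 5 mg/kg, with 20.8%, had 18.7 CPM. No r was computed for that share. The part of either tissue, or of that share, in the level of Srebf2 was not tested.

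The mean level of the other 7 genes moved with the adipocyte level. Against the adipocyte level r was 0.80 and rho 0.74 (permutation p = 0.00158 and 0.00786, adjusted 0.0109 and 0.0361), 0.69 without the 2 farthest libraries, 0.63 at 5 mg/kg and 0.88 at 1 mg/kg. No r of a marker level with the 7 genes was computed over the 9 libraries with under 170 CPM of Insig1. Single adipocyte markers had a median r of 0.69 to the mean standardised level of the 8 genes over 12 libraries, and 0.33 over those 9. Against 8 sebaceous gland markers, a skin gland rich in lipid synthesis, r was 0.80 and rho 0.73 (permutation p = 0.00165 and 0.00876, adjusted 0.0109 and 0.0361), and r was 0.78 without the 2 farthest libraries. The sebaceous level itself was low, from 1.58 to 2.82 log2 CPM at 5 mg/kg, against 1.44 to 2.49 at 1 mg/kg. Its list shares Elovl3 with the brown adipocyte list and Soat1 with the sterol esterification list below, so the level does not stand for that gland alone. Single sebaceous markers had r to the 8 genes from -0.58, for Soat1, to 0.78. Their median was 0.64 over 12 libraries and 0.26 over the 9. Against the brown adipocyte level r was 0.60 and rho 0.64 (permutation p = 0.0410 and 0.0277, adjusted 0.0902 and 0.09999), 0.64 without the 2 farthest libraries, 0.84 at 5 mg/kg and 0.092 at 1 mg/kg. Against the slow skeletal muscle level r was 0.60 and rho 0.59 (permutation p = 0.0395 and 0.0478, adjusted 0.0902 and 0.113), 0.62 without the 2 farthest libraries, 0.92 at 5 mg/kg and 0.15 at 1 mg/kg. Against luminal epithelium r was -0.00056 and rho 0.12 (permutation p = 0.999 and 0.714, adjusted 0.999 and 0.812).

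The 7 genes also moved with the genes of fatty acid synthesis, which SREBP1 drives in many tissues. The mean level of its 18 genes had r of 0.90 and rho of 0.90 with the 7 sterol genes (permutation p = 2e-05 and 0.00016, adjusted 0.00066 and 0.00528). That r was 0.83 without the 2 farthest libraries, 0.94 at 5 mg/kg and 0.85 at 1 mg/kg. Among themselves the fatty acid genes had a median r of 0.83 over 153 pairs, beside 0.79 for the 21 sterol gene pairs without Srebf2.

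Most other enzymes of sterol synthesis moved with the 8 genes over libraries. All 16 listed were tested, 13 averaged higher at 5 mg/kg and 3 lower, 0 were called, and their median log2 fold change was 0.26, beside -0.018 over all tested genes. Of the 16, 11 had r above 0.8 to the mean standardised level of the 8 genes, against 2.82% of all tested genes. The median r of the 16 was 0.87 over 12 libraries and 0.57 over the 9. Not all moved with the 8 genes. Over 12 libraries r ranged from -0.47 to 0.96, and the enzyme with the lowest had r of 0.84 to Srebf2. Acat2, which joins acetyl units at the start of the pathway, had 26.1 ± 14.1 CPM at 5 mg/kg, against 15.5 ± 8.71 CPM at 1 mg/kg (SD, n = 6 each), and its log2 fold change of 0.75 ± 0.40 (SE) did not pass. Sc5d, a late desaturase, had a log2 fold change of 0.30 ± 0.39.

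Genes that sense sterol and process SREBP showed no common pattern. Of 10 tested, 4 averaged higher at 5 mg/kg and 6 lower with 0 called, the median log2 fold change was -0.044, and 1 had r above 0.8 to the sterol genes. Erlin1 and Erlin2, which take part in the sterol-dependent breakdown of membrane proteins, had log2 fold changes of -0.16 ± 0.13 and 0.17 ± 0.12 (SE). Ubxn4 had a log2 fold change of -0.055 ± 0.11.

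For sterol uptake and transport, 14 of 15 listed genes were tested, 7 averaged higher and 7 lower at 5 mg/kg, and 0 were called. Their median log2 fold change was 0.0042 and their median r to the sterol genes -0.076 over 12 libraries and 0.12 over the 9. Npc2, which hands cholesterol out of lysosomes, had r of 0.90 to the sterol genes and a log2 fold change of 0.24 ± 0.15 (SE). Lipa, the lysosomal lipase that frees cholesterol from its esters, had 0.20 ± 0.099, and Lrp1, a lipoprotein remnant receptor, had 0.24 ± 0.30. Sterol efflux and esterification genes, including targets of the oxysterol receptor LXR, averaged higher in 6 and lower in 4 of 10, with 0 called and a median log2 fold change of 0.059. Abca2 had 0.32 ± 0.15, Nr1h3, which codes for LXR alpha, had 0.22 ± 0.15, and Abca1, the main exporter of cholesterol to lipoproteins, had 0.11 ± 0.15.

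All 18 fatty acid synthesis genes averaged higher at 5 mg/kg, beside 47.2% of all tested genes, with a median log2 fold change of 0.69 and 0 called. Of the markers of fat, 15 of 16 for adipocytes and 11 of 11 for brown adipocytes averaged higher as well, with medians of 0.36 and 1.33, and their part in the fatty acid gene values was not tested. Srebf1, the gene of SREBP1, had 106.9 ± 26.9 CPM at 5 mg/kg, against 69.0 ± 33.2 CPM at 1 mg/kg (SD, n = 6 each). The log2 fold change of Srebf1 was 0.63 ± 0.28 (SE). Acacb had 0.78 ± 0.35, Fasn, the fatty acid synthase, 0.82 ± 0.52, and the desaturase Scd1 0.40 ± 0.45. Their median r to the sterol genes was 0.82 over 12 libraries and 0.68 over the 9.

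**Figure D5:**
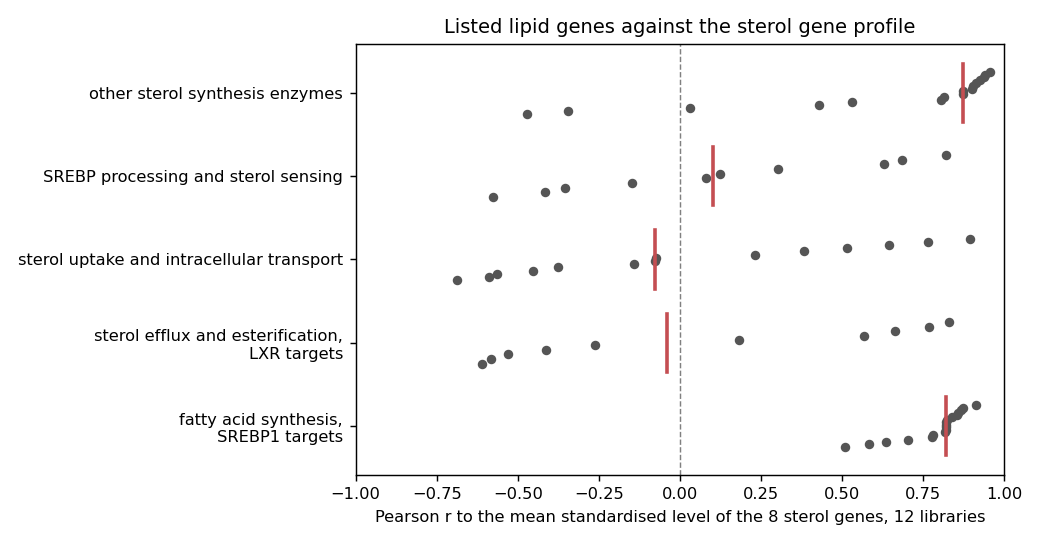
Pearson r over 12 libraries (x axis) between each tested gene of 5 lists and the mean standardised log2 CPM of the 8 sterol genes, 1 point per gene, with a red bar at the list median. Medians are 0.87 for other sterol enzymes and 0.82 for fatty acid synthesis, and lie between -0.08 and 0.10 for the other 3 lists.

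The single genes most like the sterol genes were found by r to their mean standardised level over 12 libraries, among genes with a mean of at least 1 CPM. Hsd11b1, which regenerates active glucocorticoid in fat, and Inafm2 both had r of 0.97, and over the 9 libraries 0.85 and 0.91. Nsdhl, a late sterol synthesis enzyme and one of the 16 listed, had 0.96 over 12 and 0.93 over 9. Snapc2, Fam69b and Acp6 followed at 0.95, then Mpdu1, Ppp2r5a, Slc19a1 and Usp5 at 0.94. Slc19a1 codes for the reduced folate carrier, with a mean of 5.66 CPM, a log2 fold change of 0.27 ± 0.19 (SE) and r of 0.86 over the 9 libraries. None of these 10 genes was called, and their likeness is a description of these libraries.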

How the data were processed

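RNA of 12 mammary fat pads was sequenced after isolation with the mirVana kit and TruSeq RNA v2 library preparation, which does not mark strand, per the labels' protocols. The values deposited by the authors are raw counts of reads per gene. STAR, HTSeq 0.6.1 and the build mm10 are named in the processing, per the submitters' processing notes; no source used here gives the strand setting, the annotation or the STAR version. Each file held 55487 gene IDs and 5 tally lines, which held 16.7% to 35.7% of reads and were left out. Symbols were matched for 55141 IDs and coordinates came from GENCODE vM21. Within groups no 2 libraries matched within sampling noise: over 30 pairs the lowest chi-square per degree of freedom was 41.7.

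From the counts, edgeR 4.0.16 in R 4.3.3 (filterByExpr, TMM, robust quasi-likelihood test, all 12 libraries, no covariate, threshold 0.05) gave fold changes, and log2 CPM with a prior count of 2 gave correlations. Standard errors are the fold change over the root of F. Single pairs used permutation tests written in numpy 2.4.6, with ranks from scipy 1.17.1. They used 100000 resamples over 12 libraries, were exact over 9, and were adjusted over 28 pairs or 33 relations. Alternatives were DESeq2 1.42.0, limma 3.58.1 (voom), other scalings, filters and thresholds, marker levels as covariates, and leaving out each library. Fits were tested on simulated data. Promoters came from the RefSeq table on GRCm38.p6.

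All 8 sterol genes are named. Of each other list, the 2 genes with the smallest unadjusted p and the 2 with the highest RPKM were to be named, and the 10 genes most like the sterol genes. The sterol genes and the lists were chosen with earlier results of these data known. Some listed genes are not reported here.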

Additional observations from a re-analysis of the deposited data

Results flagged for a closer look

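The same library, replicate 4 at 1 mg/kg, was the highest of its group by a wide margin in 6 of the 18 sets of 6 values checked. Its Insig1 value was 185.4 CPM, with the next 1 mg/kg library at 85.5 CPM. Hmgcs1 was 121.2 CPM there, next 51.0 CPM, and Lss 30.65 CPM, next 13.3 CPM. Cyp51 was 32.86 CPM, next 18.3 CPM, and Sqle 14.08 CPM, next 7.74 CPM. The mean level of the 8 genes was 4.998 log2 CPM, next 4.08. In each case the gap to the nearest library, as a share of the group's range, exceeded the 95% critical value of Dixon's test for 6 values. Chance alone passes that limit in about 1 of 20 groups, and these 6 are values of the same library. That library also had the highest adipocyte level, at 9.10 log2 CPM, and a low B cell level, at -1.23, whose part in its values was not tested. Sets of values at 5 mg/kg did not pass the limit.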

How the results depend on the processing

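No gene was called under any of 24 alternatives (edgeR, DESeq2 or limma-voom). Of 184 recomputed sterol gene fold changes 177 kept their sign. With the adipocyte level as a covariate the log2 fold change was -0.11 for Hmgcs1, -0.18 for Fdft1, -0.080 for Sqle, -0.038 for Cyp51 and 0.15 for Srebf2. Srebf2 ranged from -0.30 to 0.018 over leaving out 1 library, the highest without replicate 6 at 1 mg/kg, and Sqle was at -0.028 with scaling by library size alone, which shifted the median of all genes by -0.14; the cause was not tested.

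The median correlation of the 28 pairs, 0.70, was 0.49 with scaling by library size alone, 0.84 at 5 mg/kg and 0.59 at 1 mg/kg. Leaving out 1 library gave 0.60 to 0.74, the lowest without replicate 5 at 5 mg/kg. Among alternatives chosen after seeing the data, it was 0.35 without the 3 libraries above 170 CPM of Insig1, 0.39 without them and Srebf2, 0.81 with the skeletal muscle level regressed out and 0.53 with the share of reads outside genes regressed out; the cause was not tested. It stayed within 0.61 to 0.79 under the other alternatives, regressing out the adipocyte or B cell level among them. The mean level difference, 0.30, ranged from 0.19 to 0.48 over leaving out 1 library.

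No paired analysis was possible because replicates were numbered in record order, which pairs no samples. Depth limited Idi1 most, with as few as 92 reads in a library, the fewest of the 8 genes.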
